A study of Mus musculus with 16 samples.

Results

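The comparison described here sets the corpus callosum of mice returned to regular diet after cuprizone (CPZ) against that of untreated mice. Oligodendrocytes die in mice fed this toxin, white matter loses its sheaths, and new sheaths form after the feeding ends. The members were taken by sample title, and 9 of the 16 arrays of the series qualified, 6 of regular diet and 3 untreated. All mice were male C57BL/6, and no genetic alteration is given. Mice of 7 to 8 weeks were included, and the methods do not say whether this was the age at sampling. The affected area of the corpus callosum was punched out for RNA. The 6 regular-diet arrays came from mice fed CPZ for 4 weeks and then returned to plain chow. The untreated arrays came from mice kept on a normal diet and matched to the 4-week group in age and sex. No match in age is stated for the regular-diet mice, which were kept 2 or 14 days beyond the 4 weeks. The methods state 0.2% CPZ in the chow, while the labels allow 0.2 to 0.4%. By the design, 3 of the 6 arrays had 2 days of regular diet and 3 had 14 days, and the labels do not say which array belongs to which time. The 6 arrays were therefore kept as 1 group, and for the genes described in full their range or all 6 values are given. They are named by their label number, 1 to 6, which carries no order. The methods speak of 3 to 6 mice for a condition, and the labels do not tie each array to 1 animal, so the p-values measure the spread between these arrays only.

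Myelin is made by oligodendrocytes, whose membranes are rich in cholesterol and in a few abundant proteins such as Mbp. When myelin breaks down, microglia, the resident phagocytes of the brain, take up the debris, switch from surveillance genes such as P2ry12 to a state marked by Itgax, Gpnmb and Spp1, and release chemokines, while astrocytes raise Gfap and Serpina3n. Interferons act on many cell types through transcription factors that bind a short element in the promoters of interferon-stimulated genes and switch on antiviral proteins and the machinery that presents antigens to T cells.

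Each RNA was hybridised to an Agilent 4x44K mouse array in 1 colour. Values are on the log2 scale, scaled to the 75th percentile of the array, and 0 stands for the untreated median of the probe. Of 41153 probes, 29664 were well above background on at least 3 of the 9 arrays and were tested, and they covered 14593 named genes, each given by its brightest probe. The share of probes well above background was 57.3 to 71.0% on the untreated arrays and 65.0 to 72.2% on the regular-diet arrays. Arrays of 1 group correlated across probes detected on all 9 arrays at 0.949 to 0.985 for untreated and 0.932 to 0.992 for regular diet, without any pair of identical arrays. Untreated array 1 stood apart, with 1557 tested probes more than 3 log2 units below both other untreated arrays, 1478 of them without a gene name. Arrays 2 and 3 of the 4-week CPZ group shared 1261 of these low probes, and only 5 were as low on any regular-diet array. For 7 of these 9 arrays the scanner file with matching values was recorded under another sample, and the sample titles of the value table were followed throughout. Of the defining genes of myelinated tissue, 36 of 39 compact myelin genes tested were well above background on all 9 arrays.

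Regular diet after CPZ left 167 genes and transcripts higher than in untreated tissue and none lower. A gene was called at a Benjamini-Hochberg adjusted p under 0.05 from limma and at least a 2-fold change. Of the 167, 138 had a gene name and 29 were transcripts known by accession only. The named calls made up 0.946% of the named genes tested for a rise and 0.0% for a fall. At an unadjusted p under 0.05, limma counted 1406 names higher and 846 lower, and the alternative that weights arrays called 16 names lower. Only 1 further named gene passed the adjusted p above untreated without reaching 2-fold, and 2 did so below it. The median log2 fold change over all named genes tested was -0.07. The 167 were chosen for a difference between these same arrays, so separation of the groups is largely built in. Of all named genes tested, 5.92% had every regular-diet array above every untreated array. Among the 167 this held for 165, and in 124 the lowest regular-diet array was at least 2-fold above the highest untreated array. The exceptions with overlapping groups were 5830417I10Rik and Ctsw, the latter at least 2.27-fold higher with no untreated array well above background. In 45 of the 167 no untreated array was well above background, so their fitted change is not a measured size, and those named are given by a lower bound. Such genes passed the filter on dim probes through the regular-diet arrays alone, and their p-values set signal against background. Without them, 105 of 14324 named genes were called (0.733%), 17 of 27 interferon-stimulated genes, 7 of 15 chemokines and cytokines, 7 of 22 disease-associated microglia genes, 3 of 20 phagocytosis genes, 8 of 18 antigen presentation genes and 5 of 21 reactive astrocyte genes, lists that are described below. Of the 14324, 5.26% had all 6 regular-diet arrays above all untreated arrays. It held for 26 of 27 interferon-stimulated, 12 of 15 chemokine and cytokine and 19 of 22 disease-associated microglia genes. It also held for 17 of 20 phagocytosis, 14 of 18 antigen presentation and 17 of 21 reactive astrocyte genes. Counts of such separated genes given below are for whole lists, with genes never well above background on untreated arrays included. These are bulk samples, so more cells of a type and more RNA per cell cannot be told apart.

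The count rested on few untreated arrays. Leaving out untreated array 1, 2 or 3 left 74, 50 and 4 genes called, and leaving out regular-diet array 1 left 98. Without untreated array 3 the named genes called were Itgax, Cybb and Cxcl10, which were also called with any other of the 16 arrays left out. Cybb was not well above background on any untreated array, so its p-values set signal against background. Calls nearer the threshold were lost more often: Ccl6 and H2-Ab1 passed in 3 of 16 such fits, Psmb8 and S100a6 in 4, Apoc4 in 5 and Ccl2 in 7. With the scanner files assigned as recorded, limma called 0 genes, with 2008 at an unadjusted p under 0.05. Signs turned as well under that assignment, for example in Isg15 (log2 fold change -0.26), Ifit1 (-0.15), Usp18 (-0.26), Ccl5 (-0.46), H2-K1 (-0.047) and Gfap (-0.21), so the directions of these genes rest on the titles of the value table.

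The called genes were not equally high on the 6 arrays. The median of the 138 named genes was 3.72, 3.91, 2.34, 2.64, 2.36 and 2.52 on arrays 1 to 6. Array 2 held the highest value for 100 of them, and array 5 the lowest for 48. On each array, 118 to 137 of the 138 genes, which were chosen for high values on these arrays, stood at least 2-fold above the highest untreated array. The median range over the 6 arrays was 2.00 for these genes and 0.75 for all named genes tested. The plot of range against mean change shows that many genes with a mean rise above 2-fold were not called: 841 named genes had a mean at least 2-fold higher, and in 261 of these the arrays of the groups overlapped. A mean at least 2-fold lower was found for 189 genes, and 172 of them overlapped.

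**Figure D1:**
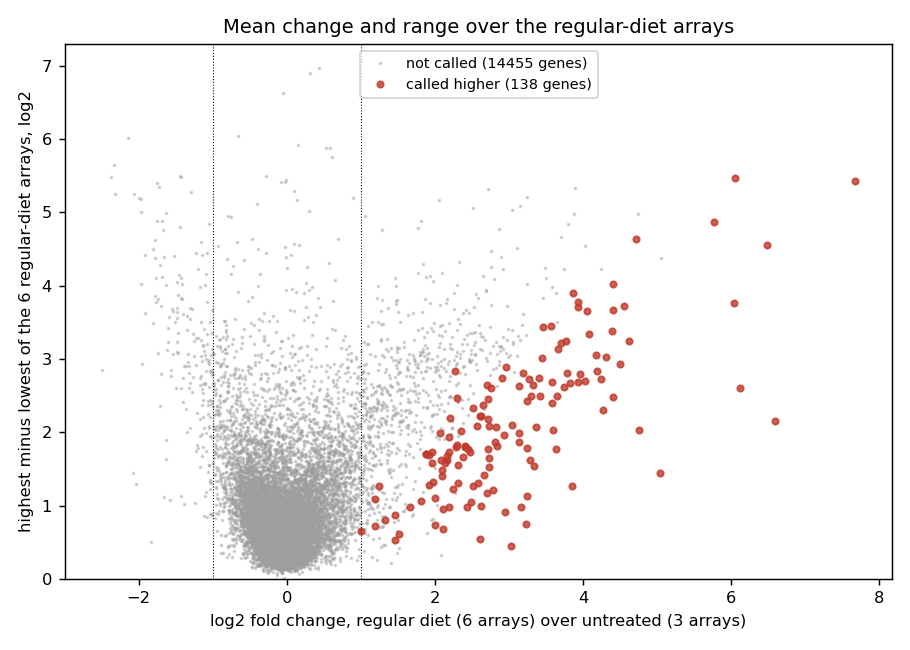
Each point is 1 of the 14593 named genes tested, placed by its log2 fold change of regular diet (6 arrays) over untreated (3 arrays) and by the highest minus the lowest of the 6 regular-diet arrays in log2 units. The 138 called genes, in red, all lie to the right of the dotted line at a 2-fold rise, and genes to the left with a mean fall beyond 2-fold mostly have ranges above 2.

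**Figure D2:**
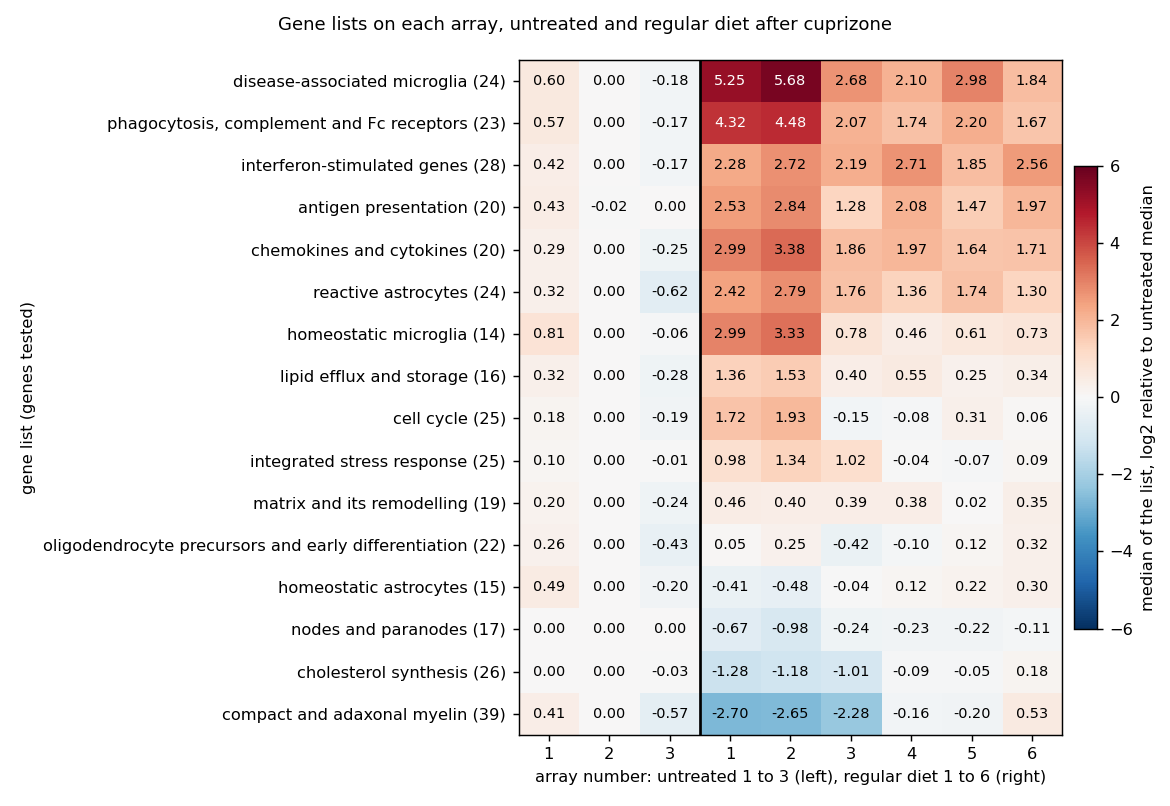
Median log2 value, relative to the untreated median, of the tested genes of 16 gene lists on the 3 untreated arrays (left of the line) and the 6 regular-diet arrays (right of the line), with the number of genes in brackets. Interferon-stimulated genes lie between 1.85 and 2.72 on all 6 regular-diet arrays, whereas compact myelin genes run from -2.70 to 0.53.

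Interferon-stimulated genes were higher by their list median on all 6 regular-diet arrays, where it lay between 1.85 and 2.72. Single genes differed in spread, with a range over the 6 arrays of 1.05 for Isg15 and 3.38 for Ifi27l2a, for example. Of 28 tested, 18 were called and 0 were lower, against 0.946% of all named genes. In 27 of the 28, all 6 regular-diet arrays lay above all 3 untreated arrays, which held for 5.92% of named genes. The exception was Xaf1 (log2 fold change 0.67, adjusted p = 0.504). The list median was 2.28, 2.72, 2.19, 2.71, 1.85 and 2.56 on arrays 1 to 6 and 0.42, 0.00 and -0.17 on the untreated arrays. The median log2 fold change was 2.36.

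Promoter stretches of 7 called genes that held a match are shown here for the element that interferon-activated factors bind. Called genes whose promoter held none, such as Oasl2, Irf7, H2-K1 and H2-D1, are not shown. The motif searched was the letters GAAA, a pair of bases of any kind and GAAA again, with its reverse complement (TTTC, any pair, TTTC) counted as well, in RefSeq promoters of build GRCm38.p6 reaching 250 bases before to 50 bases after the start of the gene. Matches are in capitals, overlapping matches run together, and each stretch is 60 bases upstream of the start, read 5′ to 3′ on the strand of the gene.
Isg15 (chr4:156200856-156200915, minus strand): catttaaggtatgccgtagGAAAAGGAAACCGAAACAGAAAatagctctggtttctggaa
Ifit1 (chr19:34640769-34640828, plus strand): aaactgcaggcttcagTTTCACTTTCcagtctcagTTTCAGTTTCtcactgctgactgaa
Ifit3 (chr19:34583365-34583424, plus strand): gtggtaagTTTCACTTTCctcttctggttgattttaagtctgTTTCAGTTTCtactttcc
Oas1a (chr5:120907526-120907585, minus strand): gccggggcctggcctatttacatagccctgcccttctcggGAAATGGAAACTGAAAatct
Bst2 (chr8:71537565-71537624, minus strand): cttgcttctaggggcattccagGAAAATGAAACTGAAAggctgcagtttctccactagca
Cxcl10 (chr5:92349068-92349127, minus strand): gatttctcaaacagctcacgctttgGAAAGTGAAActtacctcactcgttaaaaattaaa
B2m (chr2:122147523-122147582, plus strand): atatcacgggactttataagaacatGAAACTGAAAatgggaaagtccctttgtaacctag
The first base of the first match lay 78 bases before the start in Isg15, 104 in Ifit1, 156 in Ifit3, 20 in Oas1a, 130 in Bst2, 213 in Cxcl10 and 139 in B2m. Of the 28 interferon-stimulated genes tested, 22 had a promoter in the RefSeq table and 13 of them (59.1%) held the motif, as did 9 of the 13 called ones with a promoter (69.2%). Among the 20 antigen presentation genes, 3 of 16 promoters (18.8%) held it. The motif stood in 3.99% of the promoters of all 27025 genes of the table and in 3.64% of those of the named genes tested. Of all 138 called named genes, 105 had a promoter and 31 of these (29.5%) held the motif. A match describes letters only and was not tested for binding.

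Cxcl10, a chemokine that draws activated T cells, had the largest rise of the list. It stood at 0.00, 1.41 and -0.92 on the untreated arrays and at 4.46 to 5.91 (median 5.22) on the regular-diet arrays, with no overlap, a log2 fold change of 5.04 with a standard error of 0.56 (adjusted p = 0.00287). Ifi27l2a, an interferon-induced protein of mitochondria, read 0.51, 0.00 and -1.24 untreated and 2.24 to 5.62 (median 4.25) on regular diet, a log2 fold change of 4.39 with a standard error of 0.76 (adjusted p = 0.0165), and the groups did not overlap. Zbp1, a sensor of nucleic acids in the Z form, was well above background on 1 untreated array and on all 6 regular-diet arrays, where it ranged from 2.99 to 5.29 (median 4.14), against -0.52, 0.00 and 0.25 untreated, a log2 fold change of 4.27 with a standard error of 0.59 (adjusted p = 0.00539). Oas1a, which makes the messenger that activates RNase L, was well above background on 1 of the 3 untreated arrays and reached 2.84 to 5.55 (median 3.74) against 0.37, -0.14 and 0.00, a log2 fold change of 4.02 with a standard error of 0.57 (adjusted p = 0.00539), and arrays 1 and 2 were its highest. The Oas1 genes are near-identical copies, so Oas1a and Oas1f (log2 fold change 3.96) may share signal.

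The ubiquitin-like protein Isg15 and the protease that removes it, Usp18, rose together. Isg15 stood at 0.76, -0.32 and 0.00 untreated and 2.13 to 3.18 (median 2.62) on regular diet, a log2 fold change of 2.49 with a standard error of 0.42 (adjusted p = 0.0146). For Usp18 the untreated values were 0.43, 0.00 and -0.97, and the regular-diet values were 2.48 to 4.03 (median 3.02), a log2 fold change of 3.34 with a standard error of 0.51 (adjusted p = 0.00767). Ifit1, which binds foreign RNA ends, read 0.00, 0.55 and -0.27 and 2.08 to 3.60 (median 2.86) in the same order, a log2 fold change of 2.73 with a standard error of 0.44 (adjusted p = 0.0112). Its relative Ifit3 went from 0.45, 0.00 and -0.59 to 1.97 to 3.27 (median 2.38), a log2 fold change of 2.58 with a standard error of 0.42 (adjusted p = 0.0117), whereas Ifit2 had a smaller and uncalled difference, a log2 fold change of 1.14 with a standard error of 0.44 (adjusted p = 0.382). The antiviral protein Oasl2 lay at 2.51 to 3.64 (median 3.30) against 0.61, 0.00 and -0.63, a log2 fold change of 3.25 with a standard error of 0.43 (adjusted p = 0.00539), and Irf7, the factor that amplifies interferon production, at 1.25 to 3.06 (median 2.22) against 0.15, 0.00 and -0.34, a log2 fold change of 2.28 with a standard error of 0.41 (adjusted p = 0.0187). All of these were separated from untreated on every array.

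**Figure D3:**
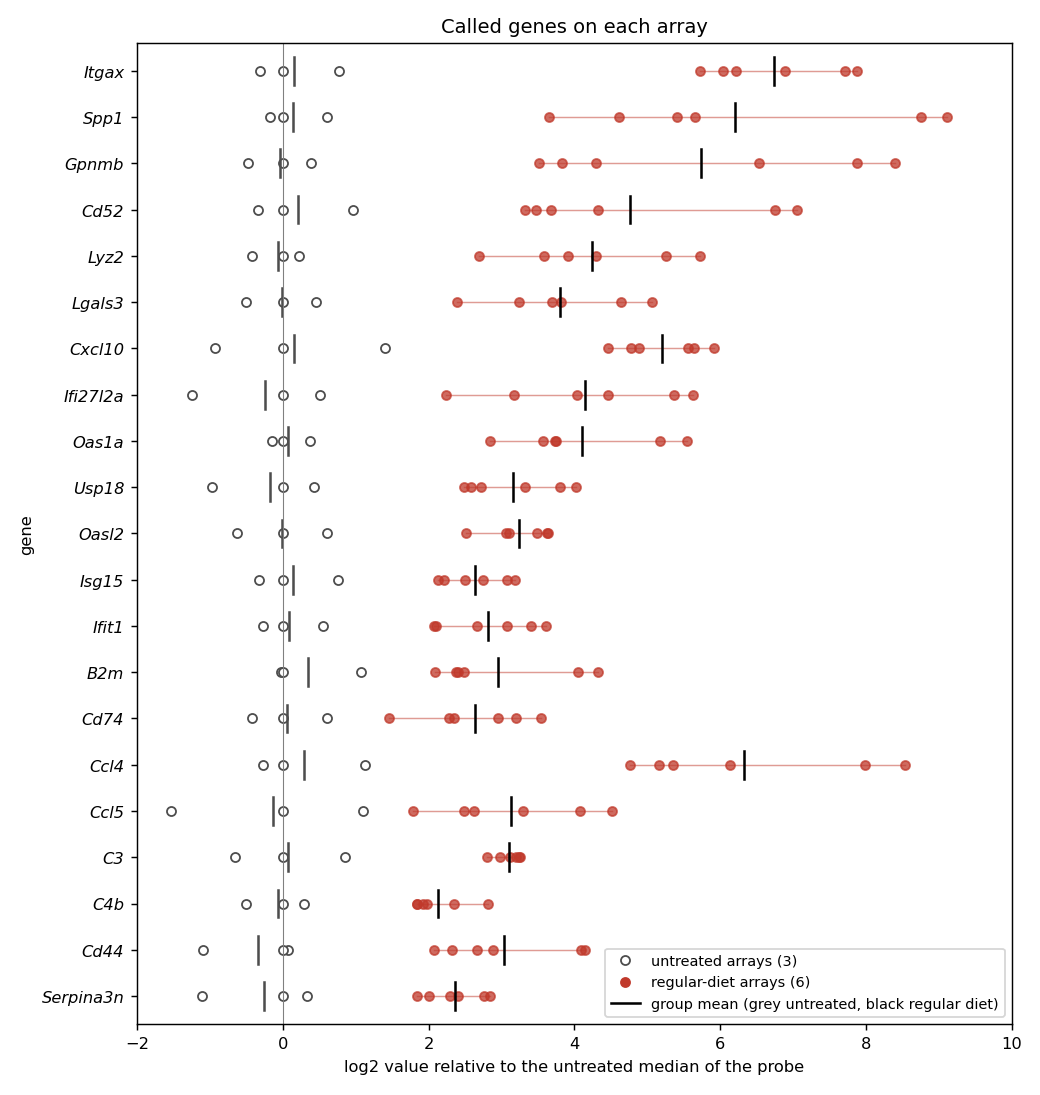
Log2 values relative to the untreated median for 21 called genes, with open circles for the 3 untreated arrays, red points for the 6 regular-diet arrays, a red line for their range and bars for the group means. All red points lie to the right of all open circles in each of these genes, and the points are closest together for C3 (2.81 to 3.25) and widest apart for Spp1 (3.64 to 9.11).

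Chemokines and cytokines formed another group with many calls, 9 of 20 tested, all higher, against 0.946% of all named genes. In 15 of the 20 the regular-diet arrays all lay above the untreated arrays, against 5.92%. Medians of the list were 2.99, 3.38, 1.86, 1.97, 1.64 and 1.71 on arrays 1 to 6, and the median log2 fold change was 2.14. Ccl3, a chemokine of activated microglia and macrophages, was not well above background on any untreated array and was at least 63.3-fold higher on regular diet. Its regular-diet values ran from 4.77 to 9.32 (median 5.99), with arrays 1 and 2 highest (limma adjusted p = 0.00611). Ccl4, a closely related chemokine well above background on 2 of the 3 untreated arrays, stood at 1.13, -0.27 and 0.00 untreated and 4.76 to 8.53 (median 5.74) on regular diet, a log2 fold change of 6.03 with a standard error of 0.78 (adjusted p = 0.00539). Ccl2, the ligand of the monocyte receptor Ccr2, was well above background on 1 of the 3 untreated arrays and ranged from 2.15 to 4.65 (median 2.93) against -0.48, 0.30 and 0.00, a log2 fold change of 3.30 with a standard error of 0.68 (adjusted p = 0.0394). Ccl12, a mouse relative of Ccl2, read 1.92 to 5.17 (median 2.89) against 0.08, 0.00 and -1.20, a log2 fold change of 3.77 with a standard error of 0.75 (adjusted p = 0.0307).

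Ccl5, a T-cell attractant, had a different order of arrays, 2.49, 2.63, 1.79, 4.08, 3.29 and 4.52 on arrays 1 to 6, with array 6 highest and array 3 lowest. Untreated values of Ccl5 were 1.11, 0.00 and -1.53, below all of these, a log2 fold change of 3.27 with a standard error of 0.59 (adjusted p = 0.0194). Ccl6 was called close to the threshold, a log2 fold change of 3.87 with a standard error of 0.83 (adjusted p = 0.0497). The inflammatory cytokine Il1b was not well above background on any untreated array and was at least 3.59-fold higher (adjusted p = 0.00786). Cxcl16, a scavenger receptor and chemokine, rose with 1.81 to 3.61 (median 2.11) against 0.37, 0.00 and -0.28, a log2 fold change of 2.41 with a standard error of 0.40 (adjusted p = 0.0119). Il33, an alarmin that oligodendrocytes express, read -4.49, -4.96, -3.41, -0.23, -0.84 and 0.29 on arrays 1 to 6 against 0.58, 0.00 and -0.44 untreated, low on arrays 1, 2 and 3, and was not called (adjusted p = 0.483). Tnf, Il6 and Il1a were on the array but failed the filter on dim probes.

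Genes of the disease-associated state of microglia had the largest median rise and the widest spread between regular-diet arrays of the gene lists. Of 24 tested, 9 were called, all higher, against 0.946% of all named genes, and all 24 means were higher than untreated. The list median on arrays 1 to 6 was 5.25, 5.68, 2.68, 2.10, 2.98 and 1.84, so arrays 1 and 2 stood above the other 4, and it was 0.60, 0.00 and -0.18 on the untreated arrays. The median log2 fold change was 3.37. Cst7, an inhibitor of lysosomal cathepsins, was not well above background on any untreated array and was at least 184-fold higher on regular diet (limma adjusted p = 0.0072). Its 6 values were 10.68, 11.18, 6.30, 6.02, 6.98 and 5.75. Itgax, the integrin chain known as CD11c, was the call with the smallest adjusted p. It was well above background on 2 of the 3 untreated arrays and read 0.77, -0.31 and 0.00 untreated and 7.71, 7.88, 6.22, 6.03, 6.89 and 5.72 on arrays 1 to 6, a log2 fold change of 6.59 with a standard error of 0.56 (adjusted p = 0.000288).

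Spp1, which encodes osteopontin, ranged from 3.64 to 9.11 (median 5.53) on regular diet against 0.61, -0.18 and 0.00 untreated, a log2 fold change of 6.06 with a standard error of 1.18 (adjusted p = 0.0279). Gpnmb, a glycoprotein of lipid-laden phagocytes, ran 7.88, 8.39, 6.53, 3.83, 4.29 and 3.51 over arrays 1 to 6, with array 3 nearer to arrays 1 and 2 than to the rest. Its untreated values, well above background on 2 of the 3 arrays, were 0.38, -0.48 and 0.00, a log2 fold change of 5.77 with a standard error of 1.09 (adjusted p = 0.0235). The lectin Lgals3 lay at 2.39 to 5.06 (median 3.75) against 0.46, 0.00 and -0.50, a log2 fold change of 3.82 with a standard error of 0.53 (adjusted p = 0.00539). Cd52, a small surface glycoprotein of leukocytes, stood at 3.32 to 7.05 (median 4.002) against 0.96, 0.00 and -0.34, a log2 fold change of 4.56 with a standard error of 0.83 (adjusted p = 0.0198). Lysozyme is made from a pair of near-identical genes, and the probes of Lyz1 and Lyz2 gave log2 fold changes of 4.50 and 4.31 (adjusted p = 0.00539 and 0.00539), which cannot be assigned to 1 of them.

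Better known members of this list were not called. Trem2, the lipid-sensing receptor, read 5.15, 5.64, 2.46, 2.02, 2.58 and 1.91 on arrays 1 to 6 and 1.003, 0.00 and -0.05 untreated, without overlap, and its adjusted p was 0.119. Its adaptor Tyrobp gave 5.60, 5.91, 2.55, 2.37, 3.07 and 1.89 against 1.03, 0.00 and -0.07, a log2 fold change of 3.25 with a standard error of 0.80 (adjusted p = 0.0885). Axl, a receptor tyrosine kinase for Gas6, ranged from 1.09 to 3.44 (median 1.32) against 0.22, -0.03 and 0.00, a log2 fold change of 1.84 with a standard error of 0.50 (adjusted p = 0.136), and the lipid carrier Apoe from 1.04 to 2.52 (median 1.42) against 0.99, 0.00 and -0.18, a log2 fold change of 1.36 with a standard error of 0.39 (adjusted p = 0.165). In all 4 the regular-diet arrays lay above the untreated arrays, and arrays 1 and 2 were the highest.

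Phagocytosis, complement and Fc receptor genes included 4 calls among 23 tested, all higher, and in 20 of the 23 all regular-diet arrays lay above untreated. Over all named genes these shares were 0.946% and 5.92%. Medians of the list were 4.32, 4.48, 2.07, 1.74, 2.20 and 1.67 on arrays 1 to 6, and the median log2 fold change was 2.48. C3, the central complement component, had nearly the same value on all 6 arrays, 2.81, 3.12, 3.24, 3.25, 2.98 and 3.20, against 0.85, 0.00 and -0.65 untreated, a log2 fold change of 3.03 with a standard error of 0.58 (adjusted p = 0.0255). C4b, the component that acts before it, was 1.84 to 2.81 (median 1.95) against 0.00, 0.30 and -0.50, a log2 fold change of 2.19 with a standard error of 0.36 (adjusted p = 0.0117), and its highest values were on arrays 5 and 6. C1qa, a chain of the starting complex of complement, instead gave 4.63, 5.16, 2.25, 1.98, 2.41 and 2.03 on arrays 1 to 6 and was not called, a log2 fold change of 2.79 with a standard error of 0.70 (adjusted p = 0.0978). C1qb (adjusted p = 0.133) and C1qc (adjusted p = 0.134) had the same order of high arrays. Cybb, the catalytic chain of the phagocyte oxidase, was not well above background on any untreated array and was at least 5.47-fold higher (limma adjusted p = 0.00287), with regular-diet values of 3.17 to 4.44 (median 3.61). A dimmer Cybb probe, also not well above background on any untreated array, was at least 1.32-fold higher and was not called (adjusted p = 0.133). The IgG receptor Fcgr4, well above background on 1 of the 3 untreated arrays, stood at 2.40 to 5.54 (median 2.76) against 0.14, -0.54 and 0.00, a log2 fold change of 3.66 with a standard error of 0.70 (adjusted p = 0.025). Itgam, the integrin chain known as CD11b, was high on arrays 1 and 2 only, at 3.95 and 4.48, and lay between -0.28 and 0.31 on the other 4.

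Antigen presentation genes included calls in both MHC classes. Of 20 tested, 8 were called, all higher, against 0.946% of all named genes, and 16 lay above untreated on all 6 arrays, against 5.92%. The median log2 fold change was 2.17. The list median on arrays 1 to 6 was 2.53, 2.84, 1.28, 2.08, 1.47 and 1.97. B2m, the light chain of MHC class I, read 1.07, -0.02 and 0.00 untreated and 4.04, 4.32, 2.09, 2.38, 2.40 and 2.49 on regular diet, a log2 fold change of 2.60 with a standard error of 0.52 (adjusted p = 0.0307). The class I heavy chains H2-K1 (log2 fold change 2.41, adjusted p = 0.0165), H2-D1 (log2 fold change 2.10, adjusted p = 0.0172) and H2-Q7 (log2 fold change 2.32, adjusted p = 0.0118) rose by similar amounts, but they are similar in sequence and their probes may share signal. A further H2-K1 probe was not called (log2 fold change 1.81, adjusted p = 0.0546). Psmb8, a subunit of the immunoproteasome that cuts peptides for class I, was called close to the threshold, a log2 fold change of 2.62 with a standard error of 0.55 (adjusted p = 0.0452). A dimmer Psmb8 probe was not called (log2 fold change 2.60, adjusted p = 0.0523). Another immunoproteasome subunit, Psmb10, gave a log2 fold change of 0.22 (adjusted p = 0.664).

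In class II, Cd74, the invariant chain, stood at 2.35, 2.28, 1.46, 3.54, 3.20 and 2.95 on arrays 1 to 6 and 0.61, -0.42 and 0.00 untreated, a log2 fold change of 2.57 with a standard error of 0.44 (adjusted p = 0.0164). Here array 4 was the highest and array 3 the lowest. H2-Ab1, the class II beta chain, read 3.97, 3.94, 1.23, 3.70, 3.06 and 2.57 against 1.13, -0.63 and 0.00, a log2 fold change of 2.91 with a standard error of 0.62 (adjusted p = 0.0469), and its dimmer probes were not called (adjusted p = 0.076 and 0.079). H2-DMa, which loads peptides on class II, stood at 2.27 and 2.58 on arrays 1 and 2 and at -0.16 to 0.25 on the other 4 (adjusted p = 0.576).

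Homeostatic microglia genes gave no call among 14 tested, a count too small to set apart from the 0.946% of all named genes called. Means were higher in 13 of the 14, by at least 2-fold in 8, and 3 (21.4%) lay above untreated on all 6 arrays, against 5.92% of named genes. The list median was 2.99, 3.33, 0.78, 0.46, 0.61 and 0.73 on arrays 1 to 6 and 0.81, 0.00 and -0.06 untreated, so only arrays 1 and 2 left the range of the untreated arrays. P2ry12, the purinergic receptor of surveying microglia, ran 2.33, 2.42, -0.30, 0.21, 0.11 and 0.37 against 0.73, 0.00 and -0.17, a log2 fold change of 0.67 with a standard error of 0.55 (adjusted p = 0.635). Tmem119 gave 2.61, 2.86, -0.56, -0.09, -0.38 and 0.46 against 0.91, 0.00 and -0.29, a log2 fold change of 0.61 with a standard error of 0.68 (adjusted p = 0.704). The purinergic receptor P2ry13 gave 1.62 (adjusted p = 0.362). The fractalkine receptor Cx3cr1 was 0.99 to 3.75 (median 1.21) against 0.97, 0.00 and 0.00, a log2 fold change of 1.66 with a standard error of 0.62 (adjusted p = 0.356). Arrays 1 and 2 were also the highest for the disease-associated and complement lists, and the part of the homeostatic values in those rises was not tested.

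Reactive astrocyte genes showed 5 calls among 24 tested (0.946% of all named genes), all higher, and 19 lay above untreated on every array (5.92% of all named genes). The median log2 fold change was 1.95, and the list median was 2.42, 2.79, 1.76, 1.36, 1.74 and 1.30 on arrays 1 to 6. Serpina3n, a protease inhibitor, stood at 1.84 to 2.84 (median 2.35) against 0.00, -1.11 and 0.33, a log2 fold change of 2.62 with a standard error of 0.46 (adjusted p = 0.0175). Cd44, a hyaluronan receptor, was 2.08 to 4.15 (median 2.77) against 0.07, 0.00 and -1.09, a log2 fold change of 3.37 with a standard error of 0.64 (adjusted p = 0.0239). The calcium-binding protein S100a6 lay at 1.54 to 2.27 (median 1.75) against 0.44, 0.00 and -0.87, a log2 fold change of 2.003 with a standard error of 0.41 (adjusted p = 0.0402), and S100a10 at 1.29 to 2.17 (median 1.49) against 0.00, 0.62 and -0.30, a log2 fold change of 1.46 with a standard error of 0.24 (adjusted p = 0.0118). Cxcl10, described above, is the remaining call and is also on the interferon list.

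Gfap, the intermediate filament of astrocytes, was similar on all 6 arrays, 1.23, 1.46, 1.35, 1.34, 1.58 and 1.48, and above untreated at 0.53, 0.00 and -0.75, but did not pass, a log2 fold change of 1.48 with a standard error of 0.35 (adjusted p = 0.0747). Vim, a second filament, ranged from 1.35 to 2.97 (median 2.15) against 0.77, 0.00 and -0.77, a log2 fold change of 2.09 with a standard error of 0.54 (adjusted p = 0.108). Lcn2, an iron-siderophore binder, differed most, with 6.35, 6.92, 5.98, 0.70, 1.70 and 0.17 on arrays 1 to 6 against 0.00, 1.95 and -0.999 untreated. It was well above background on 4 of the 6 and on no untreated array, and the groups overlapped. Homeostatic astrocyte genes gave no call among 15 (median -0.19), near the 0.946% of all named genes, with Aqp4, the water channel, at a log2 fold change of 0.71, Slc1a2 at -0.55, Slc1a3 at 0.76 and the glutamine synthetase gene Glul at -0.67.

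Outside the lists stood 87 of the 138 called named genes, of which Tlr2, Bcl2a1b, Apoc4, Csf3r and Oas1f were picked by the naming rule of the methods. Cd300lf, Tlr1, Ptprc, A2m and Ifi204 were picked after their values were seen. Cd300lf, an inhibitory receptor of myeloid cells, read 5.60 to 8.20 (median 6.76) on regular diet against 3.25, 0.00 and -0.74 untreated. Its log2 fold change was 6.12 with a standard error of 1.15 (adjusted p = 0.0236). It was well above background on 1 of the 3 untreated arrays, so the size of this change rests partly on background readings. The Toll-like receptors Tlr1 and Tlr2, which pair to sense bacterial lipoproteins, both rose. Tlr1 was not well above background on any untreated array and was at least 6.35-fold higher (adjusted p = 0.0126). Tlr2 read 3.31 to 6.66 (median 3.71) on regular diet against 1.34, -0.06 and 0.00 untreated, a log2 fold change of 4.08 (adjusted p = 0.0233). Apoc4, an apolipoprotein, was at least 10.2-fold and Csf3r, the receptor for granulocyte growth factor, at least 11.3-fold higher (adjusted p = 0.0413 and 0.0182), since neither was well above background on any untreated array. Bcl2a1b, an inhibitor of apoptosis with near-identical copies, stood at 2.72 to 6.43 (median 3.73) against 1.13, 0.00 and -0.12, a log2 fold change of 3.94 with a standard error of 0.76 (adjusted p = 0.0255). The leukocyte phosphatase Ptprc, known as CD45, rose as well, a log2 fold change of 3.45 with a standard error of 0.64 (adjusted p = 0.0215). A2m, a protease inhibitor, gave a log2 fold change of 3.16 (adjusted p = 0.0255).

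Families with roles in interferon responses were grouped by symbol after the calls were known, so their counts are a description. They cover members well above background on at least 1 untreated array, on a list or not. Of all named genes that met this condition, 0.733% were called. Of 11 guanylate-binding and immunity-related GTPases, which attack vacuoles of pathogens, 7 were called, with log2 fold changes of 1.33 to 2.95. The Oas family had 4 calls among 6, and 10 of 19 H2 genes were called, from 1.88 to 2.91. Calls numbered 3 of 38 Trim genes, 3 of 12 Parp genes and 1 of 2 Schlafen genes. Of the Ifi200 family of DNA sensors only Ifi204 was counted, well above background on 1 of the 3 untreated arrays and called (log2 fold change 4.41, adjusted p = 0.00539). Promoters of called genes outside the interferon and antigen presentation lists held the interferon motif in 20 of 86 cases (23.3%).

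Compact myelin genes were lower on the mean of the regular-diet arrays, but none was called, as 0.0% of all named genes were called lower, and the 6 arrays spread widely. All 39 tested had a negative log2 fold change, 28 of them beyond 2-fold, and the median was -1.28. In none of the 39 did all 6 arrays lie below the untreated arrays, which held for 3.87% of named genes. The list median on arrays 1 to 6 was -2.70, -2.65, -2.28, -0.16, -0.20 and 0.53, against 0.41, 0.00 and -0.57 untreated. Arrays 1, 2 and 3 were thus below the untreated range, and arrays 4, 5 and 6 were within it or above it. The labels do not tie any of these arrays to 2 or 14 days of regular diet.

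Mbp, the basic protein that compacts the membrane, showed the pattern with -3.33, -3.16, -2.37, -0.31, -0.24 and 0.03 on arrays 1 to 6 against 0.37, 0.00 and -0.66 untreated, a log2 fold change of -1.47 with a standard error of 0.93 (adjusted p = 0.576). Dimmer Mbp probes gave log2 fold changes of -1.52 and -0.20 (adjusted p = 0.567 and 0.69). Mog, on the outer surface of the sheath, read -4.22, -4.76, -2.99, -0.01, -0.13 and 0.65 against 0.06, 0.00 and -0.53, a log2 fold change of -1.75 with a standard error of 1.22 (adjusted p = 0.6). In both genes arrays 1, 2 and 3 were below all untreated arrays and the others overlapped them. Cmtm5, a membrane protein, had a log2 fold change of -1.11. Mag, the adhesion molecule next to the axon, gave a log2 fold change of -1.28 with a range of -3.03 to 0.65 (median -1.30). Mal and Ppp1r14a, both among the 8 genes with the largest range over the 6 arrays of those well above background on all 9 arrays, ran from -5.22 to 0.80 (median -2.04) and from -5.07 to 0.58 (median -1.99).

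Oligodendrocyte precursor genes gave no call among 22 tested, near the 0.946% of all named genes, and a median log2 fold change of 0.06. Pdgfra, the growth factor receptor of precursors, read 0.11, 0.25, -0.32, 0.02, 0.03 and 0.27 against 0.40, 0.00 and -0.36, a log2 fold change of 0.05 with a standard error of 0.24 (adjusted p = 0.941). The 95% interval of that difference had a half-width of 0.51. The proteoglycan Cspg4 ranged from -0.46 to 2.23 (median 0.05), a log2 fold change of 0.63 with a standard error of 0.53 (adjusted p = 0.643), and the lineage factors Olig1 and Olig2 gave -0.61 and -0.18. Node and paranode genes were lower on the mean in 16 of 17 (median -0.47), with no call, as 0.0% of all named genes were called lower. Cntn2, which holds the region next to the paranode, had the most negative log2 fold change of the list, -1.49 with a range of -3.27 to 0.28 (median -1.53), while Nfasc gave -0.48, Cntn1 -0.31 and Cntnap1 -0.21.

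**Figure D4:**
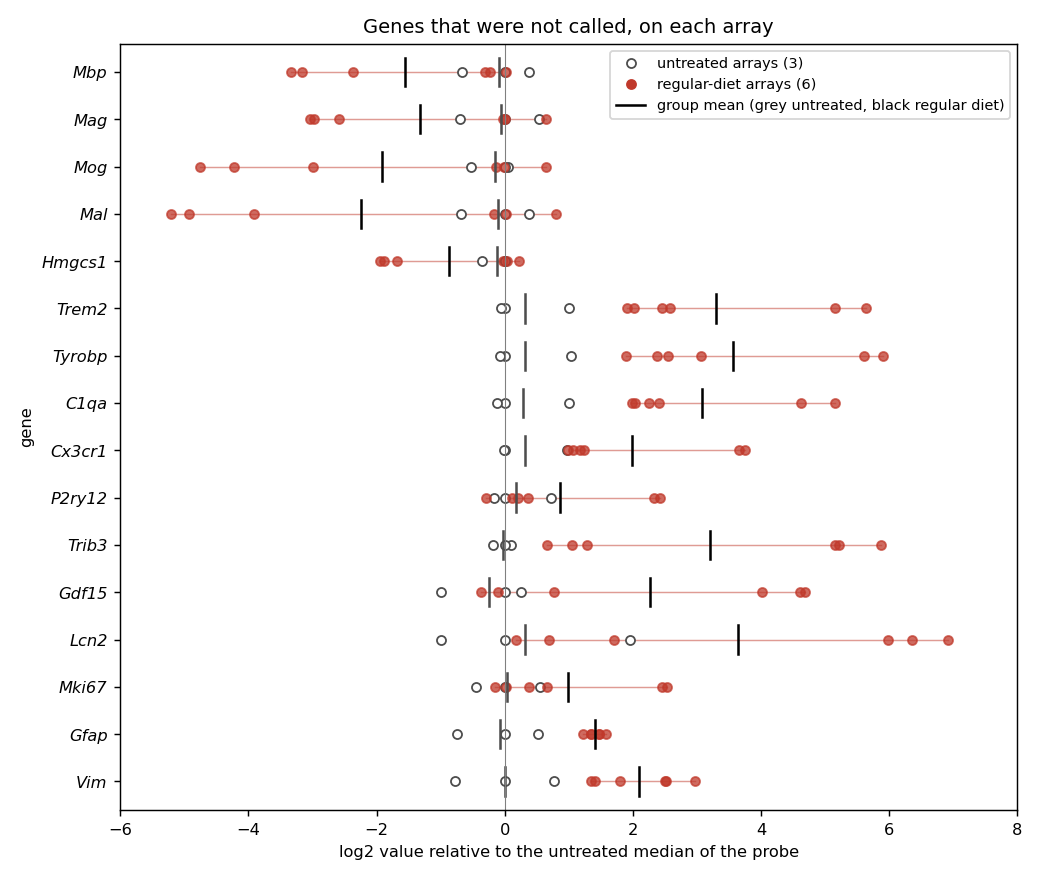
Log2 values relative to the untreated median for 16 genes that were not called, with open circles for the 3 untreated arrays, red points for the 6 regular-diet arrays, a red line for their range and bars for the group means. Myelin genes such as Mog (-4.76 to 0.65) and stress genes such as Trib3 (0.67 to 5.88) have arrays 1, 2 and 3 farther from untreated than the other 3, whereas Gfap keeps all 6 between 1.23 and 1.58.

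Cholesterol synthesis genes were lower on the mean in 25 of 26 tested, with no call, as 0.0% of all named genes were called lower, and a median log2 fold change of -0.56. The list median was -1.28, -1.18, -1.01, -0.09, -0.05 and 0.18 on arrays 1 to 6 and 0.00, 0.00 and -0.03 untreated. Hmgcs1, an early enzyme of the pathway, read -1.94, -1.88, -1.68, -0.02, 0.04 and 0.23 against 0.00, 0.00 and -0.35, a log2 fold change of -0.76 with a standard error of 0.46 (adjusted p = 0.567). Insig1, the sterol sensor partner, ran -1.98, -1.93, -2.002, -0.29, -0.29 and 0.39 against 0.08, 0.00 and -0.07, a log2 fold change of -1.02 with a standard error of 0.47 (adjusted p = 0.476). Arrays 1, 2 and 3 were low in both. Acat2 and Mvk gave -0.08 and -0.36. The motif TCACNCCAC, a sterol regulatory element, was found in 1 of 18 promoters of the list (5.56%) and in 1.44% of all promoters.

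Lipid efflux and storage genes gave no call among 16 tested, near the 0.946% of all named genes, and 3 lay above untreated on all 6 arrays, against 5.92% of all named genes. The median log2 fold change was 0.82. Abca1, the cholesterol exporter, stood at 0.71 to 3.26 (median 1.59) against 0.21, 0.00 and -0.44, without overlap, a log2 fold change of 1.87 with a standard error of 0.56 (adjusted p = 0.196). Its partner Abcg1 gave 0.03, and the liver X receptors that control both, Nr1h3 and Nr1h2, gave 0.35 and -0.12.

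Integrated stress response genes divided the 6 arrays in the same way as myelin genes, in the opposite direction. The list median was 0.98, 1.34, 1.02, -0.04, -0.07 and 0.09 on arrays 1 to 6 and 0.10, 0.00 and -0.01 untreated, and the median log2 fold change was 0.56. No gene was called among 25 tested, near the 0.946% of all named genes, and 3 lay above untreated on all 6 arrays, against 5.92%. Trib3, a pseudokinase induced by Atf4, read 5.22, 5.88, 5.16, 1.05, 1.28 and 0.67 against 0.10, -0.19 and 0.00, a log2 fold change of 3.24 with a standard error of 1.11 (adjusted p = 0.287). Gdf15, a secreted stress hormone, read 4.02, 4.69, 4.61, 0.77, -0.38 and -0.11 against 0.00, -0.998 and 0.25, a log2 fold change of 2.52 with a standard error of 1.22 (adjusted p = 0.496). Nupr1, a small chromatin protein of stressed cells, read 4.18, 4.60, 3.62, 1.35, 1.37 and 1.42 against 0.32, 0.00 and -0.07, a log2 fold change of 2.67 with a standard error of 0.71 (adjusted p = 0.121). The regular-diet arrays 4, 5 and 6 of Trib3 and Nupr1 still lay above untreated, and those of Gdf15 overlapped it. Among the factors themselves, Atf4 gave a log2 fold change of 0.24, Ddit3 0.49, Atf5 1.52 and Atf3 2.55 (adjusted p = 0.138). The motif TGATGNAA, an amino acid response element, was in 7 of 23 promoters (30.4%), against 4.51% of all promoters.

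Cell cycle genes were high on arrays 1 and 2 only. Medians of the list were 1.72, 1.93, -0.15, -0.08, 0.31 and 0.06 on arrays 1 to 6 and 0.18, 0.00 and -0.19 untreated, with no call among 25 tested, near the 0.946% of all named genes, and a median log2 fold change of 0.66. Mki67, a mark of dividing cells, read 2.45, 2.53, -0.15, 0.03, 0.66 and 0.38 against -0.45, 0.54 and 0.00, a log2 fold change of 0.95 with a standard error of 0.57 (adjusted p = 0.563). Top2a, which untangles DNA, gave 1.93, 2.07, -0.42, -0.58, 0.19 and -0.07 against 0.00, 0.04 and -0.46, a log2 fold change of 0.66 with a standard error of 0.66 (adjusted p = 0.681). Cdk1 and its cyclin Ccnb1 had the same arrays highest, with ranges of -0.26 to 3.19 (median 0.38) and -0.43 to 1.66 (median 0.36). Cdkn1a, the inhibitor known as p21, instead followed the stress genes, 2.05, 2.72, 2.44, -0.18, -0.31 and -0.42 (adjusted p = 0.695).

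Matrix genes included 1 call among 19 tested, Spp1, against 0.946% of all named genes, and a median of 0.26. Timp1, an inhibitor of matrix metalloproteases, lay at 1.21 to 3.25 (median 1.67) against -0.68, 0.35 and 0.00 by its brightest probe and was not called, a log2 fold change of 2.11 with a standard error of 0.53 (adjusted p = 0.0991). A dimmer Timp1 probe, not well above background on any untreated array, was called and was at least 3.72-fold higher (adjusted p = 0.0181). Timp2, Timp3 and Mmp2 gave 0.26, 0.24 and 0.94. Fibronectin, Fn1, read 4.74, 4.63, 1.01, 0.48, -0.15 and 0.11 on arrays 1 to 6.

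No gene was called lower, yet in 565 named genes (3.87%) all 6 regular-diet arrays lay below all untreated arrays. Only Gnai1 and Hdgfl3 passed the adjusted p, at less than 2-fold. Gnai1, an inhibitory G protein subunit, read -1.27, -1.45, -1.18, -0.62, -1.004 and -0.69 against 0.32, 0.00 and -0.51 (limma adjusted p = 0.05, log2 fold change -0.97). Hdgfl3, a growth factor-like protein, gave -0.78 (adjusted p = 0.0401). Among genes detected on all 9 arrays, the largest mean differences with no overlap were those of Islr2, at -2.46 to -1.01 (median -1.89) against 0.00, -0.02 and 0.96, a log2 fold change of -2.08 with a standard error of 0.64 (adjusted p = 0.205), Plekhf1, a log2 fold change of -1.63 with a standard error of 0.54 (adjusted p = 0.26) and Cap2, an actin-binding protein, a log2 fold change of -1.43 with a standard error of 0.37 (adjusted p = 0.118). These genes were picked after their values were seen.

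The genes that the study itself singled out gave 4 calls among 64 tested, with a median log2 fold change of -0.35. The study chose them on these samples, so their direction is not independent evidence. In 26 of the 64 all regular-diet arrays lay above untreated and in 1 below. Over all named genes 0.946% were called, 5.92% lay above and 3.87% below.

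Marker lists of other cell types gave no call, near the 0.946% of all named genes called. Means were lower in 14 of 15 neuronal genes (median log2 fold change -0.40) and in 10 of 10 endothelial genes (median -0.44). The medians over the 6 regular-diet arrays ran from -0.96 to -0.01 for 15 neuronal genes, from -0.91 to 0.20 for 10 endothelial genes, and from -1.46 to 0.75 for 9 pericyte and meningeal genes. For 5 lymphocyte genes they ran from -0.02 to 0.66, for 5 neutrophil and monocyte genes from -0.91 to 0.16, for 4 red blood cell genes from -0.70 to 0.89, and for 8 subventricular progenitor genes from -0.47 to 0.16. Choroid plexus and ependymal genes varied most between arrays, with medians of -2.35, -1.16, 1.25, 2.52, -0.38 and 0.52 on arrays 1 to 6 and 0.87, -0.34 and 0.00 untreated. The 8 genes with the largest range, of those well above background on all 9 arrays, included Kcne2 and Ttr. Kcne2, a potassium channel subunit, ran -3.24, -1.23, 1.73, 3.66, -1.44 and -0.02 and Ttr, the thyroid hormone carrier, -3.59, -1.39, 1.25, 3.03, -1.62 and -0.29. Krt18, a keratin, ran from -2.83 to 2.66 (median 0.35), Slpi, a protease inhibitor, from -2.05 to 3.71 (median 1.12), and Spink8 from -3.04 to 2.45 (median -1.51). The order of arrays for choroid plexus genes differed from that for microglial and myelin genes, and its part in other results was not tested.

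The regular-diet arrays were then set beside the 4 arrays after 4 weeks of CPZ, the state from which the regular-diet mice started. No named gene was called between them by limma (0.0%), while 8 transcripts without a gene name were higher on regular diet. Of 22122 names tested, 5881 had an unadjusted limma p under 0.05, so the lack of named calls does not show that the groups were alike. With 1 array left out the count of 8 moved to 1306 without untreated array 1, 44 without untreated array 2, 1724 without 4-week array 1 and 243 without 4-week array 3. It was 0 without 4-week array 2, 1 without 4-week array 4, 4 without 2-week array 3, 2 without regular-diet array 4, 5 or 6, 4 without array 1 and 5 without array 2. Both comparisons share the regular-diet arrays, so the values are given side by side only. Of the 138 named genes called against untreated, 133 had overlapping ranges on regular diet and after 4 weeks, and in the other 5 all 6 regular-diet arrays lay above all 4-week arrays. The 138 were chosen for high regular-diet values, and no share over all named genes is at hand for this comparison. No direction is therefore read from these counts. The smallest adjusted p of regular diet against 4 weeks among the 138 was 0.070.

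The list medians after 4 weeks of CPZ and on regular diet are given side by side. Interferon-stimulated genes ran from 1.61 to 2.64 over the 4-week arrays and from 1.85 to 2.72 on regular diet. Disease-associated microglia genes ran from 1.46 to 3.38 and from 1.84 to 5.68. For compact myelin the ranges were -3.53 to -1.25 and -2.70 to 0.53. In each list the ranges overlapped. C3 had the largest mean difference of the phagocytosis and complement list, a log2 value 1.54 higher on regular diet (adjusted p = 0.121). For Trib3 the difference was -1.42 (adjusted p = 0.385), and neither gene was called.

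**Figure D5:**
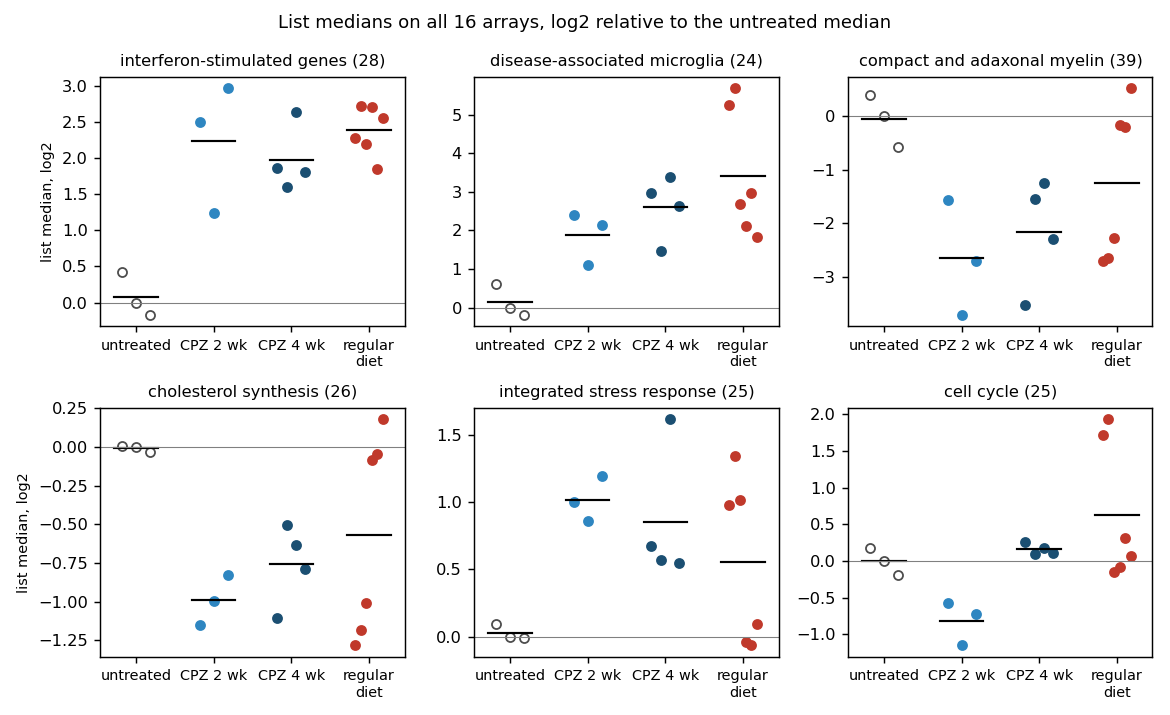
Median log2 value, relative to the untreated median, of the tested genes of 6 lists on each of the 16 arrays, by group, with a bar for the mean of each group and the number of genes in brackets. The regular-diet arrays lie close together for interferon-stimulated genes (1.85 to 2.72) and apart for myelin (-2.70 to 0.53).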

How the data were processed

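RNA of punched-out corpus callosum was hybridised by the authors to single-colour (Cy3) Agilent 4x44K mouse arrays. The deposited value table holds log2 values that the authors scaled to the 75th percentile of each array in GeneSpring, with 0 at the untreated median of each probe. The deposited scanner files hold linear spot intensity, per the file headers from Feature Extraction 11.0.1.1, and served for the flag well above background, for lower bounds and for alternatives. Each value-table column was matched to the scanner file with which it correlated best (r at least 0.9999, next best at most 0.874). For 14 of the 16 arrays that file was recorded under another sample, in 13 under another group. Group and array number followed the value table. Of the 41228 probes of the value table, 41153 that were also non-control probes of the scanner files were used, and 66.7% of them carried a gene name.

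The probes well above background on at least 3 of the 9 arrays (29664) were fitted with limma 3.58.1 (R 4.3.3, statmod 1.5.0) over 16 arrays in 4 groups, with eBayes and Benjamini-Hochberg adjustment over all of them. The residual degrees of freedom were 12, with a prior of 2.31. A gene was called at an adjusted p under 0.05 and at least 2-fold, and was given by its brightest tested probe. The fit was tested on simulated data first. Where no untreated array was well above background, a lower bound is printed as "at least". The regular-diet mean is set there against a floor for each untreated array, which is the dimmest signal of any probe that passed the flag or, if larger, the measured signal of the gene itself. The number of arrays limits the precision. All 16 arrays were scanned on 1 day, on 4 slides.

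The groups, gene lists, tests and naming rule were chosen with earlier results of these data known. The rule named the 12 called genes with the largest rise (and fall) that were detected on all 9 arrays and did not overlap, the 4 largest lower bounds, up to 4 called and the first 4 members of each list, called genes among those the study named, and, of genes well above background on all 9 arrays, the 8 with the largest range over the regular-diet arrays. Other genes were named after their values were seen. A few genes are not reported here, although they stay in the tests and list counts. Tables were handled in Python 3.11.15 (pandas 2.3.3, numpy 2.4.6) and plotted with matplotlib 3.10.9. Alternatives changed the samples fitted, the source and assignment of values, background correction, normalization, filter, slide and replicate blocks, array weights and the test, and left out each array in turn.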

Additional observations from a re-analysis of the deposited data

Results flagged for a closer look

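Of 114 values tested for 1 array standing apart from the others of its group, 1 passed, where chance passes about 1 in 20. It was the median of the matrix and remodelling list on the regular-diet arrays, where the lowest array, at 0.0162, was separated from the next by 0.754 of the range of the 6 arrays.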

How the results depend on the processing

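The count of genes called against untreated, 167, was 9 with the ANOVA and Tukey test of the methods, 17 with the replicate block, 36 with normexp background correction (all higher, as before), 89 with a filter on all 9 arrays, 102 (99 higher, 3 lower) without the 3 arrays that stand apart (untreated 1 and 4-week 2 and 3, chosen after the data were seen), 256 with slide as a random block and 551 (535 higher, 16 lower) with array weights. With slide as a fixed block 3 genes were lower, and with quantile normalization or no filter 2. Leaving out 1 array gave 4 to 198 called and 0 to 3 lower. The numbers of replicates did not pair the arrays, with correlations of deviations of 0.01, -0.15 and 0.33 for numbers 1 to 3, so the replicate block is given only here. With the scanner files as recorded, 0 genes were called.

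Against 4 weeks of CPZ, the 8 calls became 0 as recorded, with normexp, with the filter on all 9 arrays, with slide fixed and with the replicate block, 1 with a filter on every array of 1 group, 4 with the methods' test, 38 with median centring and with slide random, 344 with quantile normalization, 672 without the 3 arrays and 2207 with array weights. Leaving out 1 array gave 0 to 1724.

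Signs of these named genes turned, given as log2 fold changes of regular diet over untreated. With the scanner files as recorded the values were Pdgfra -0.36, Tmem119 -0.055, Abcg1 -0.32, Nr1h3 -0.38, H2-K1 -0.047, Ifit1 -0.15, Ifit3 -0.26, Isg15 -0.26, Ccl2 -0.33, Ccl5 -0.46, S100a6 -0.33, Gfap -0.21, Vim -0.31, Aqp4 -0.16, Slc1a2 0.059, Slc1a3 -0.13, Atf3 -0.44, Atf4 -0.15, Atf5 -0.047, Ddit3 -0.44, Timp3 -0.30, Mmp2 -0.58, Cntn1 0.49, Cntnap1 0.51, Kcne2 -1.44, Spink8 0.46, Usp18 -0.26, Oasl2 -0.098, Irf7 -0.21, Xaf1 -0.58, Gdf15 -0.21, Cap2 0.11 and Cdkn1a -0.79. With slide fixed the values were Olig2 0.038 and Ttr 0.26. With array weights the values were Olig2 0.26, Abcg1 -0.082, Nfasc 0.063, Ttr 0.99, Slpi -0.47, Krt18 0.89 and Cdkn1a -0.076. Without the 3 arrays the values were Olig2 0.15, Nr1h2 0.057, Ttr 0.79 and Krt18 0.19. With normexp the values were Cdk1 -0.19, Ccnb1 -0.30, Mmp2 -0.052, Ttr 0.083 and Ctsw -0.11 (no untreated array well above background, so not a measured size). With quantile normalization Ttr was 0.033. With median centring Ttr was 0.0085. With slide random Ttr was 0.012. Over the fits without 1 array the range was Pdgfra -0.14 to 0.24, Olig2 -0.50 to 0.15, Abcg1 -0.11 to 0.15, Nr1h2 -0.23 to 0.057, Kcne2 -0.61 to 1.02, Ttr -1.10 to 0.79 and Krt18 -0.81 to 0.29.

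Of 476 list medians, 460 moved by less than the spread between arrays. Normexp used the median spot signal in place of the mean, and array weights were estimated gene by gene. The causes were not tested. Probes not above background on the untreated arrays give bounds only.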
